A study of Mus musculus with 8 samples.

Results

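CUT&Tag with an anti-Foxp3 antibody was compared with CUT&Tag with normal rabbit IgG in regulatory T (Treg) cells that carry the R397W form of Foxp3. The 4 libraries, 2 with each antibody, were taken by the genotype and antibody in their labels and are 4 of 8 libraries in the series. All 4 came from Treg cells sorted as CD4+hCD2+GFP- taken out of the spleen and lymph nodes of mice of strain C57BL6/J and genotype Foxp3R397W-IRES-hCD2/Foxp3-IRES-GFP. Cells with an active Foxp3-IRES-GFP allele, which the same animals carry, were removed by the sort. The other 4 libraries came from the same sort of mice of genotype Foxp3WT-IRES-hCD2/Foxp3-IRES-GFP and are used here only as a readout after the R397W sites were chosen. The labels give no age, no treatment and no pooling, and do not say whether libraries 1 and 2 came from separate mice, so the spread behind each p-value is that between 2 libraries of unknown origin and may be technical. Signal was given at 5521 Foxp3 sites that the study sorted into 3847 common, 727 cTreg-specific and 947 eTreg-specific sites (eTreg, effector Treg).

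Foxp3 is a forkhead transcription factor encoded on the X chromosome that Treg cells need to form and to restrain other immune cells. Its forkhead domain contacts DNA, and R397W, an arginine to tryptophan change, lies in that domain. In CUT&Tag an antibody brings a transposase to chromatin, which cuts and tags the DNA nearby. The IgG libraries measure what the transposase tags without a specific antibody, which is greatest in open chromatin.

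The R397W libraries numbered 2 differed from those numbered 1 in coverage more than the antibodies did within a number. Reads in the listed sites numbered 111274 (library 1) and 281252 (library 2) with anti-Foxp3, against 111359 and 258781 with IgG. No reads were present at 15.7% and 55.5% of sites with anti-Foxp3, while IgG left 18.9% and 60.1% empty. Where a site had reads, anti-Foxp3 had a median of 17 and 77 reads and IgG one of 17 and 79. All 4 libraries had reads at 1426 sites (25.8%). On the log2(value + 1) scale Pearson's r across the 5521 sites was 0.51 and 0.47 between the 2 antibodies of libraries 1 and 2, and 0.42 between the 2 Foxp3 libraries. IgG replicates also gave 0.42, and libraries that shared neither antibody nor number gave 0.41 and 0.42. These are correlations across sites of shared libraries and describe likeness only. Values below are the deposited normalised read counts, in the order library 1 and library 2, and a value of 0 allows up to 3 reads by counting error.

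Of the 5521 sites, 0 (0.0%) differed between anti-Foxp3 and IgG in R397W cells by limma with Benjamini-Hochberg adjustment (lowest adjusted p = 0.9). At unadjusted p under 0.05 limma placed 23 sites (0.417%) above IgG and 12 (0.217%) below. The quasi-likelihood test of edgeR on recovered reads likewise passed 0 sites, with 24 above and 10 below at unadjusted p under 0.05, and DESeq2 passed 0, with 68 and 28. The fitted difference was above 0 at 2830 sites and below 0 at 2406, and its median was 0.05 on the log2 scale. Without R397W Foxp3 library 2 limma passed 406 sites, all above IgG. All 406 were at 0 in both R397W IgG libraries, and 348 of them were also at 0 in the library left out.

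Because no site passed, sites were described by whether both same-numbered pairs went the same way. Foxp3 was above IgG in both pairs at 883 sites (16.0%) and below IgG in both at 675 (12.2%). A site is called kept here where (Foxp3 + 1)/(IgG + 1) was at least 2 in both pairs and each Foxp3 library had at least 10 reads. This held at 293 sites (5.31%). The same rule with the antibodies exchanged, called the mirror rule, held at 193 sites (3.5%) and gives the number that IgG libraries reach over anti-Foxp3 by the same rule. Both Foxp3 values lay above both IgG values at 572 sites (10.4%) and below both at 433 (7.84%). The ratios of pair 1 and pair 2 had a Pearson's r of 0.01 across sites on the log2 scale, given as a description.

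Most kept sites had a 0 in one IgG library. IgG was 0 in library 1 at 42 of the 293 (14.3%) and in library 2 at 189 (64.5%), while 97 had IgG reads in both. Among the 193 mirror sites, anti-Foxp3 was 0 in library 1 at 15 (7.77%) and in library 2 at 115 (59.6%), and 76 had reads in both. Over the 1426 sites with reads in all 4 libraries, 97 (6.80%) were kept and 76 (5.33%) met the mirror rule. Of all sites, those with reads for one antibody only were more often Foxp3 sites in both pairs, with 680 (12.3%) against 503 (9.11%) in pair 1 and 954 (17.3%) against 701 (12.7%) in pair 2.

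**Figure D1:**
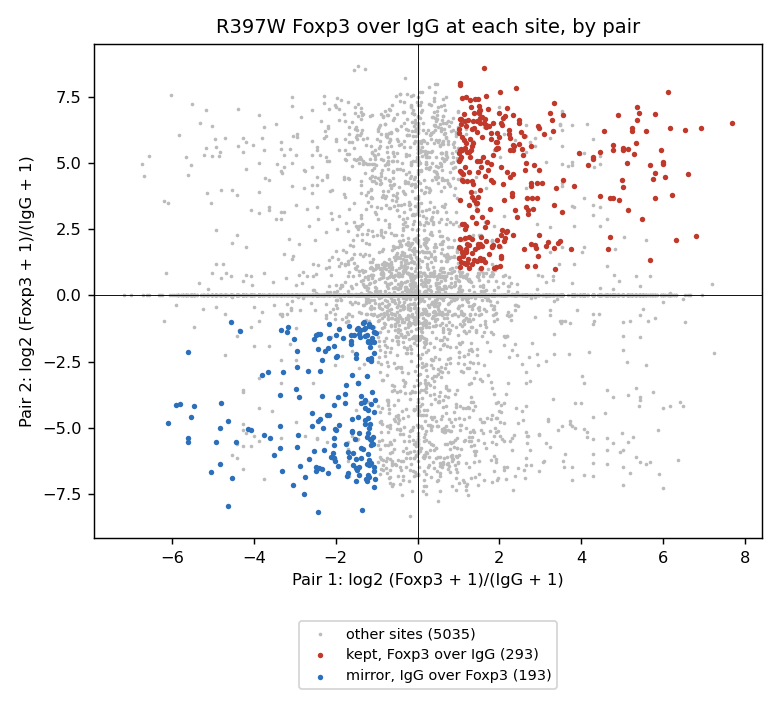
Each point is 1 site, with the log2 ratio of anti-Foxp3 to IgG, each with 1 added, in R397W pair 1 on the x axis and in pair 2 on the y axis, for all 5521 sites. The 293 kept sites lie in the upper right and the 193 mirror sites in the lower left, and the cloud as a whole has no slope (r = 0.01).

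On the deposited scale kept sites outnumbered mirror sites mainly in the common class. There, 221 sites (5.74%) were kept and 124 (3.22%) met the mirror rule. At cTreg-specific sites the counts were 30 (4.13%) and 28 (3.85%), and at eTreg-specific sites 42 (4.44%) and 41 (4.33%). Each class was scaled separately in the deposited files, and the balance moved with the scale. With every library scaled to equal totals of reads over all sites, common sites gave 170 kept against 147 mirror sites, cTreg-specific sites 40 against 21 and eTreg-specific sites 45 against 32. Kept sites outnumbered mirror sites most clearly in the common class on the deposited scale and least clearly there at equal totals.

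Class means ordered the classes differently. The mean signal at common sites was 1.12 and 1.06 times IgG in pairs 1 and 2, or 1.09 ± 0.0451 (SD, n = 2 pairs). At cTreg-specific sites the ratios were 0.896 and 1.42, or 1.16 ± 0.371, and at eTreg-specific sites 0.880 and 1.03, or 0.954 ± 0.104. Exact permutation tests of the class means between antibodies, two-sided, gave p = 0.667, 1 and 1, where 2 against 2 libraries cannot give less than 0.33. At equal totals the mean ratio was 0.966 at common and 1.10 at eTreg-specific sites, so the direction at both turned with the scaling. On the deposited scale the mean log2 difference, as a ratio, was 1.14 at common and 1.17 at eTreg-specific sites, so the direction at eTreg-specific sites also turned with the summary used.

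Reads in one class relative to another within a library carry no scale factor. On the log2 scale this ratio, anti-Foxp3 minus IgG, was 0.11 and 0.26 for eTreg-specific over common sites and 0.25 and 0.32 for cTreg-specific over common sites (pairs 1 and 2). For eTreg-specific over cTreg-specific sites it was −0.14 and −0.06. Both pairs had the same sign in each of the 3 class ratios, and the R397W difference was never above 0.32 in size. The ratio of eTreg-specific to cTreg-specific sites follows from the ratios to common sites, so it is not a separate reading. Like signs in 2 pairs were not tested.

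**Figure D2:**
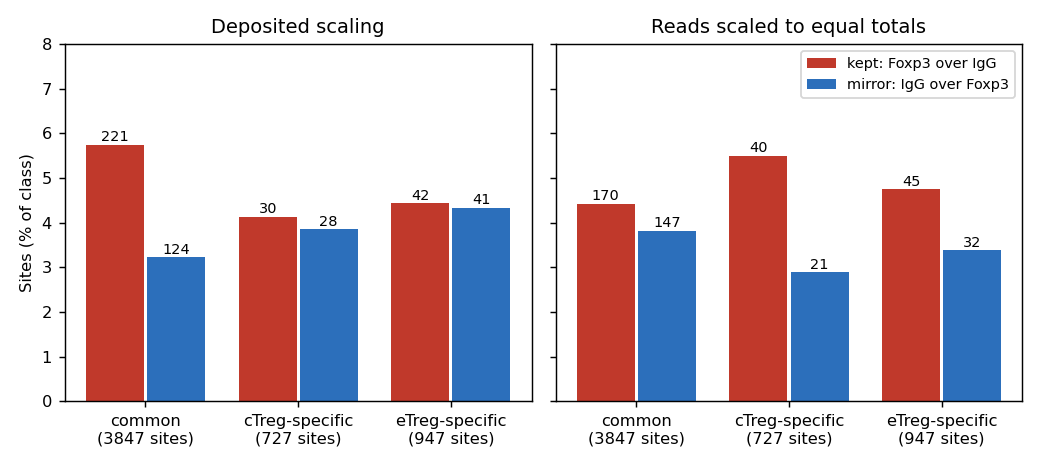
The percentage of sites that were kept (anti-Foxp3 over IgG) or met the mirror rule (IgG over anti-Foxp3) is shown for each class on the deposited scale and at equal totals. On the deposited scale common sites had 5.74% kept against 3.22% mirror sites, a gap that shrank to 170 against 147 sites at equal totals.

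Sites were also grouped by place. Within 1 kb of a gene start, 33 of 592 sites (5.57%) were kept and 30 (5.07%) met the mirror rule, and Foxp3 was above IgG in both pairs at 130 and below at 132. Inside gene bodies 141 of 3141 (4.49%) were kept and 89 (2.83%) met the mirror rule. Between genes the counts were 119 (6.66%) and 74 (4.14%) of 1788. Away from gene starts the excess of kept over mirror sites was mainly in the common class (103 against 56 in gene bodies and 86 against 41 between genes). At cTreg-specific sites the counts were 19 kept and 13 mirror sites in gene bodies and 11 and 13 between genes. At eTreg-specific sites they were 19 and 20 in gene bodies and 22 and 20 between genes. Places were counted on the deposited scale only, and the balance between classes changed at equal totals. Differences between places were not tested.

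On the deposited scale, summed R397W Foxp3 and IgG signal were nearly equal at the strongest sites. Sites were ranked by the mean of the 4 R397W libraries and cut into 10 groups of like size. In group 10, the strongest, summed Foxp3 signal was 1.03 and 1.01 times IgG in pairs 1 and 2, with 33 kept and 23 mirror sites. Group 9 had ratios of 1.12 and 1.18, with 55 kept sites (9.96%) and 22 mirror sites (3.99%). In group 1, the weakest, the ratio was 1.23 in pair 1 and 3.91 in pair 2, over sites whose mean did not exceed 2.26. In groups 1 and 2 no site was kept or met the mirror rule. The mean over the 4 libraries is part of the measure compared, so these groups are a description. They pool classes that were scaled separately, and ratios this near 1 depend on that scale.

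**Figure D3:**
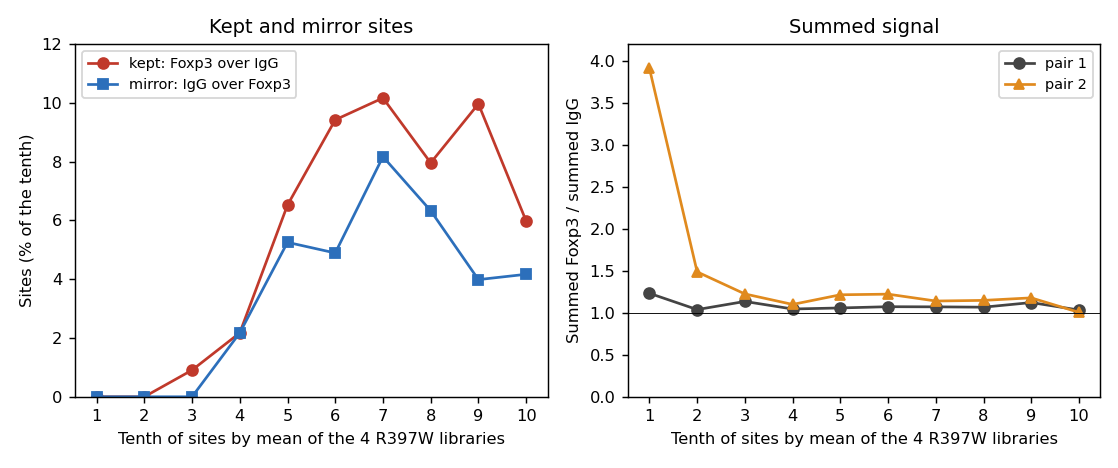
Sites are ranked in 10 groups by the mean of the 4 R397W libraries, from weakest (1) to strongest (10), with the ratio of summed anti-Foxp3 to summed IgG signal in each pair (right) and the percentage of kept and mirror sites (left). On the deposited scale the ratio in group 10 was 1.03 and 1.01. Group 9 had the widest gap between kept (9.96%) and mirror (3.99%) sites.

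The kept common sites with the highest smaller pair ratio had no IgG reads, and a pair of them had no gene within 100 kb. The first (chromosome 13, 52026363 to 52026763) had Foxp3 values of 205 and 88.9 and IgG values of 0 and 0, at least 30.2-fold and 46.6-fold higher against the limit of 3 reads per library. The second (chromosome 14, 76781481 to 76781881) had 121 and 78.0 against 0 and 0. Inside Rnf220, which encodes a ubiquitin ligase (chromosome 4, 117478107 to 117478507), the values were 91.9 and 74.1 against 0 and 0. Inside Prkg1, the gene of a cGMP-dependent protein kinase (chromosome 19, 31210607 to 31211007), they were 70.9 and 78.0 against 0 and 0. With IgG at 0 in both libraries, the kept rule itself places both Foxp3 values above IgG at each of these. The 2 leading common mirror sites had the opposite pattern. IgG was 47.5 and 45.2 at a site with no gene within 100 kb (chromosome 13, 110960300 to 110960700) and 47.5 and 40.7 inside Fryl (chromosome 5, 73032149 to 73032549), with anti-Foxp3 at 0 in both libraries.

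At cTreg-specific sites the leading kept values were smaller. A site 8449 bp from Gen1, which encodes a Holliday junction resolvase (chromosome 12, 11230279 to 11230679), had Foxp3 values of 50.6 and 29.1. A site inside Tet1, the gene of a DNA demethylating dioxygenase (chromosome 10, 62859021 to 62859421), had 18.5 and 34.7. Another inside Cox10, a gene for heme A synthesis in mitochondria (chromosome 11, 63989457 to 63989857), had 18.5 and 36.2. Near Otud1, a deubiquitinase gene (chromosome 2, 19665855 to 19666255), they were 16.9 and 29.1. IgG was 0 in both libraries at all 4 sites. The leading mirror sites of the class reached like values, with IgG of 23.8 and 26.1 near Ncf1, a gene of the phagocyte NADPH oxidase (chromosome 5, 134233411 to 134233811). IgG was 43.2 and 17.0 at 39419 bp from Map3k7, which encodes the kinase TAK1 (chromosome 4, 32062689 to 32063089). Anti-Foxp3 was 0 at both.

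The leading kept eTreg-specific sites also had IgG at 0 in both libraries. A site with no gene within 100 kb (chromosome 14, 61778556 to 61778956) had Foxp3 values of 41.9 and 116. A site inside Arhgap26 (chromosome 18, 39083034 to 39083434), had 39.8 and 96.0. One 1793 bp from Aebp2, which encodes a Polycomb complex component (chromosome 6, 140620461 to 140620861), had 39.8 and 135. Values of 33.5 and 31.2 were found 13122 bp from Hif1a, the gene of a hypoxia-responsive transcription factor (chromosome 12, 73888002 to 73888402). The mirror rule led to Ptpn22, a phosphatase gene of T cell receptor signalling (chromosome 3, 103872643 to 103873043), with IgG at 32.2 and 99.9, and to Slc4a7, a bicarbonate transporter gene (chromosome 14, 14706496 to 14706896), with IgG at 27.3 and 31.4. Anti-Foxp3 was 0 in both libraries at these 2 sites.

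The sites with the highest mean R397W Foxp3 value were not kept in any class. Near Ramp3, at a distance of 17823 bp, the strongest common site (chromosome 11, 6695101 to 6695501) had Foxp3 values of 814 and 908 against IgG at 686 and 640, ratios of 1.19 and 1.42. At the cTreg-specific site in Spg11 (chromosome 2, 122118201 to 122118601) they were 177 and 389 against 160 and 352. At the eTreg-specific site in Mpp2 (chromosome 11, 102087137 to 102087537) they were 81.7 and 478 against 233 and 460. IgG values were thus also high at these 3 sites, and anti-Foxp3 reached 2 times IgG in neither pair. In pair 1 at Mpp2 IgG was 2.85-fold above anti-Foxp3.

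Of the 293 kept sites, 21 had an unadjusted p under 0.05 in limma, and their lowest adjusted p was 0.9. The 5 lowest, named after their values were seen, had IgG reads in both libraries. Inside Nbeal2, a gene of platelet granule formation (chromosome 9, 110645202 to 110645602), Foxp3 was 339 and 188 against IgG at 36.2 and 45.8, which is 9.35-fold and 4.11-fold (unadjusted p = 0.0124, limma). At 7045 bp from Xirp1 (chromosome 9, 120030443 to 120030843) it was 247 and 67.0 against 4.53 and 8.27. A site 29596 bp from Melk, a kinase gene (chromosome 4, 44271113 to 44271513), had Foxp3 at 126 and 106 against 22.6 and 12.7. A cTreg-specific site 24790 bp from 4930512M02Rik (chromosome 11, 11564233 to 11564633) had 184 and 291 against 58.4 and 48.3. The remaining site, inside Ubac2 at the start of Gpr18 (chromosome 14, 121915717 to 121916117), had 273 and 181 against 58.8 and 33.1. The antibodies did not overlap at any of the 5, which were picked by p-value from the same libraries, so this adds no support.

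The rule's threshold cuts through a continuum. Just inside it, the site at the start of Mtf2 had Foxp3 values of 91.9 and 123 against IgG at 45.3 and 45.8. Just outside it, the site inside Cytip had 47.3 and 80.5 against 13.6 and 40.1.

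The 12 gene lists covered Treg and T cell programmes, housekeeping genes and markers of B, myeloid, CD8 T and NK cells, which the CD4+hCD2+GFP- gate should remove, and 332 sites were assigned to at least one listed gene. Of these, 16 (4.82%, at 14 genes) were kept, 12 (3.61%) met the mirror rule and 0 passed in limma, shares near the 5.31% and 3.5% over all sites. Counts of single lists below lie within a few sites of what these overall shares give, and nothing is read from them about a list. With reads required in all 4 libraries only 3 of the 28 kept sites named here, listed or leading in a class, were still kept, and a ratio of 3 left 18. At 13 of the 16 kept sites of listed genes IgG library 2 was 0, against 64.5% of all kept sites and 60.1% of all sites. At 11 of the 16 both Foxp3 values lay above both IgG values, against 10.4% of all sites. The kept rule favours that order, so the count says nothing about the listed genes. Of the 16, the Il2ra site alone was under 0.05 by limma before adjustment, at 0.0437, and none passed after it.

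Among core Treg genes, 3 of 40 sites (7.5%, against 5.31% overall) were kept and 1, at Ikzf2, met the mirror rule, with Foxp3 above IgG in both pairs at 6 sites and below at 4. The median fitted log2 difference was 0.18, against 0.05 over all sites. A raised median was not particular to Treg genes. It was 0.73 for AP-1, IRF, NFAT and related factors, 0.49 for T cell receptor and costimulation genes and 0.33 for Foxp3 partner factors. Naive and resting T cell genes had 0.08. The few sites of cytokine, housekeeping and CD8 T and NK cell genes had 0.59, 0.61 and −0.67. Inside Il2ra, which encodes the high-affinity chain of the interleukin 2 receptor, a common site (chromosome 2, 11651528 to 11651928) had Foxp3 values of 99.8 and 153 against IgG at 9.05 and 0. The stronger Il2ra site in the same gene (chromosome 2, 11653356 to 11653756) was not kept, with 228 and 249.98 against 256 and 160. At Ctla4, the gene of an inhibitory receptor, a site at a distance of 26026 bp (chromosome 1, 60882799 to 60883199) gave 47.3 and 72.8 against 0 and 0. A site 32731 bp from Lrrc32, which encodes the TGF-beta anchor GARP (chromosome 7, 98534362 to 98534762), had 181 and 43.8 against 72.4 and 0, so that Foxp3 library 2 lay below IgG library 1.

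The Foxp3 gene itself had 2 sites, and neither was kept. The site at its start (chromosome X, 7579306 to 7579706) had 0 in all 4 R397W libraries. The site in its body (chromosome X, 7583928 to 7584328) had Foxp3 values of 76.1 and 175 against IgG at 303 and 0, so the 2 pairs went opposite ways. These are values of DNA tagged at the locus, not of Foxp3 expression.

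Effector Treg genes, receptors and factors of activated Treg cells, had 4 of 53 sites kept (7.55%, against 5.31% overall) and 2 (at Klrg1 and Rora) under the mirror rule, with a median log2 difference of 0.34. The kept sites fell at only 2 genes. A common site inside Gata3, a T helper type and Treg transcription factor gene (chromosome 2, 9872781 to 9873181), had 55.1 and 52.8 against 18.1 and 10.8, and it did not overlap with IgG. A second Gata3 site (chromosome 2, 9875892 to 9876292) had 65.6 and 99.2 against 20.4 and 0. Both kept Tigit sites, at the gene of an inhibitory receptor, were eTreg-specific. The one at the gene start (chromosome 16, 43664097 to 43664497) had 119 and 41.4 against 49.6 and 0, and the one 34250 bp away (chromosome 16, 43699175 to 43699575) had 73.3 and 32.8 against 24.8 and 0. The Tigit start site overlapped between antibodies, since Foxp3 library 2 lay below IgG library 1.

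Naive and resting T cell genes had 3 of 91 sites kept (3.30%) and 3 under the mirror rule, with Foxp3 above IgG in both pairs at 11 and below at 12. At 13271 bp from Ccr7, a lymph node homing receptor gene (chromosome 11, 99130728 to 99131128), the values were 49.9 and 8.38 against 6.79 and 0. A site 34301 bp from Cd69, an activation and tissue retention receptor gene (chromosome 6, 129232823 to 129233223), had 142 and 55.4 against 54.3 and 21.6. A cTreg-specific site inside Ets1, a T cell transcription factor gene (chromosome 9, 32722955 to 32723355), had 45.5 and 62.4 against 10.8 and 0. Cd69 and Ets1 each also had a mirror site, so both directions occurred at the same genes.

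Of 26 sites of AP-1, IRF, NFAT and related factors, 1 was kept (3.85%) and 2 (at Irf4 and Irf2) met the mirror rule. The kept site was eTreg-specific and lay inside Tox2, an HMG-box factor gene (chromosome 2, 163229069 to 163229469), with 37.7 and 175 against 17.4 and 0. Of 69 sites of genes for Foxp3 partner factors, 4 were kept (5.80%) and 3 met the mirror rule. Beside the Gata3 and Ets1 sites these included 1 inside Ikzf1, the Ikaros gene (chromosome 11, 11766108 to 11766508), with 84.0 and 24.5 against 29.4 and 0, where the antibodies overlapped.

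T cell receptor and costimulation genes had 4 of 57 sites kept (7.02%) and 2 under the mirror rule (3.51%, against 3.5% overall), with 11 above IgG in both pairs and 6 below. The Vav1 site, near the gene of a guanine nucleotide exchange factor (chromosome 17, 57276737 to 57277137), had 99.8 and 102 against 22.6 and 0 and did not overlap with IgG. At 74023 bp from Prkcq, a protein kinase C gene of the T cell synapse (chromosome 2, 11375049 to 11375449), the values were 86.6 and 53.5 against 34.0 and 11.5. Inside Ptprc, the CD45 gene (chromosome 1, 138148816 to 138149216), they were 81.4 and 12.2 against 31.7 and 0. Inside Cd247, the gene of the T cell receptor zeta chain (chromosome 1, 165837550 to 165837950), they were 28.9 and 10.95 against 13.6 and 0, with overlap at both.

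No site of the NF-kB and TNF receptor list was kept, in a list of 21 sites where the overall share of 5.31% gives about 1, and Foxp3 was above IgG in both pairs at 1 and below at 5, with 1 mirror site at Tnfrsf1b. Its median log2 difference was −0.61. The 7 conventional T cell cytokine sites had 0 kept and 0 mirror sites. The nearest to the rule, 15743 bp from Ifng (chromosome 10, 118461437 to 118461837), had 76.1 and 32.2 against 40.7 and 16.5, ratios of 1.87 and 1.95. B cell and myeloid genes had no site among the 5521, and the 2 sites of CD8 T and NK cell genes and the 2 of housekeeping genes were neither kept nor mirror sites. At the housekeeping gene Eef1a1, an elongation factor gene (chromosome 9, 78480816 to 78481216), the values were 57.8 and 225 against 56.6 and 89.1.

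**Figure D4:**
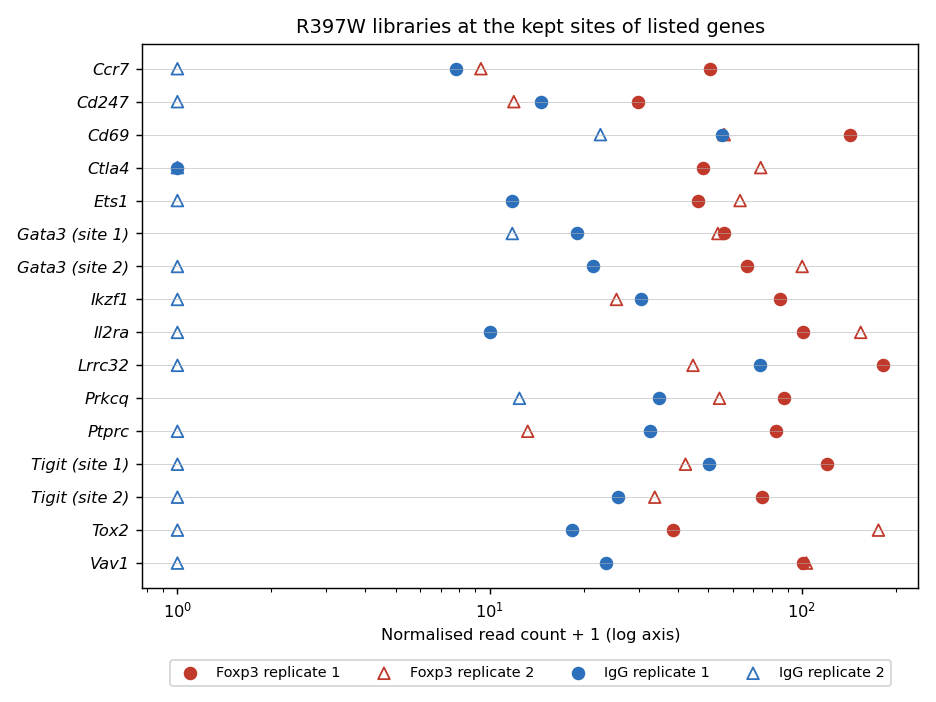
The 16 kept sites of listed genes are shown with the normalised read count of each of the 4 R397W libraries plus 1 on a log axis, red for anti-Foxp3 and blue for IgG, filled circles for library 1 and open triangles for library 2. IgG library 2 is at 0 (drawn at 1) at 13 sites, and the antibodies overlap at 5.

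Kept sites were spread over genes. Of 2759 genes with a site, 252 had a kept site and 18 had 2, the most for any gene, while 175 had a mirror site and 4 (Nebl, Cxcr4, Ripor2 and Btg1) had 2. Among the 300 genes with 4 or more sites, 14 had 2 kept sites. Those with the highest share were Igf2r, a receptor gene that also binds mannose 6-phosphate proteins, and Tigit, each with 2 of 4 sites, followed by Aebp2 and Sipa1l1 with 2 of 5. One Igf2r site (chromosome 17, 12783263 to 12783663) had 94.5 and 192 against 40.7 and 61.7. The other (chromosome 17, 12691893 to 12692293) had 70.9 and 17.4 against 15.8 and 0. The second Aebp2 site, a common one (chromosome 6, 140613762 to 140614162), had 55.1 and 46.4 against 13.6 and 0. Inside Sipa1l1, a Rap GTPase-activating protein gene, an eTreg-specific site (chromosome 12, 82245331 to 82245731) had 35.6 and 70.3 against 12.4 and 0, and this gene also had 1 mirror site. Sla, which encodes an adaptor that dampens T cell receptor signals, and St6gal1 each had 2 kept sites of 6, with values at Sla of 86.6 and 76.7 against 34.0 and 0 at the common one (chromosome 15, 66789041 to 66789441).

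Promoters are the only sites whose sequence could be read here, and 471 sites overlapped a RefSeq promoter window (GRCm38.p6), of which 25 (5.31%, the share over all sites) were kept and 24 (5.10%, against 3.5% over all sites) met the mirror rule. The 250 bases before the gene start are printed for 3 kept sites, 5′ to 3′ on the gene's strand. Zup1 holds a forkhead motif, Sap30bp an AP-1 motif, and Tigit is the listed gene with a kept site at its start. Capitals mark the forkhead motif TGTTTAC or its reverse complement GTAAACA in Zup1 (chr10:33951260-33951509, minus strand) and the AP-1 motif TGANTCA in Sap30bp (chr11:115933409-115933658, plus strand). Tigit (chr16:43664185-43664434, minus strand) held none of the 3 motifs searched.
Zup1: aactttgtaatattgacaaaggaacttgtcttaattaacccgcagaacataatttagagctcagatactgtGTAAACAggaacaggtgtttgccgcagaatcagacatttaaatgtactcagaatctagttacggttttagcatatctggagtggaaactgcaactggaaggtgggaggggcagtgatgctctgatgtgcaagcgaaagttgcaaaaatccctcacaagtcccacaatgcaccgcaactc
Sap30bp: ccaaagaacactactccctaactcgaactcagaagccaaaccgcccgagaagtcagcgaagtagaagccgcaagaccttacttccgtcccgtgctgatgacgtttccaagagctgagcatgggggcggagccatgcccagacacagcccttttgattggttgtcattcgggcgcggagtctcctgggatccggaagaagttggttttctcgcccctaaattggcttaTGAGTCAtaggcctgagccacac
Tigit: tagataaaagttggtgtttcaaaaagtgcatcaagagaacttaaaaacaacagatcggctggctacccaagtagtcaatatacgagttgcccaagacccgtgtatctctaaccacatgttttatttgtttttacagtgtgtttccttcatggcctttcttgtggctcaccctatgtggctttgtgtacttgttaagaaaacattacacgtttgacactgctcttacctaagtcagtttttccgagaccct

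At the start of Zup1, which encodes a deubiquitinase (site at chromosome 10, 33951135 to 33951535), Foxp3 values were 102 and 106 against IgG at 24.9 and 28.0. At Sap30bp, a transcription cofactor gene (chromosome 11, 115933366 to 115933766), they were 152 and 84.4 against 72.4 and 35.0. At Jak2, a cytokine receptor kinase gene (chromosome 19, 29251231 to 29251631), they were 142 and 160 against 18.1 and 45.8. The antibodies did not overlap at these 3 start sites, unlike at Tigit. They were picked from the kept start sites, and the kept rule favours that order. Both Foxp3 values lay above both IgG values at 10.4% of all sites, so the order at these 3 adds no support.

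The motifs were searched on both strands in the 250 bases. TGTTTAC was found in 2.62% of all 21262 windows, in 6.55% of the 550 that a site overlapped, in 7.14% of the 28 at kept sites and in 11.5% of the 26 at mirror sites. TGTTTGT, another forkhead form, was in 5.13%, 9.45%, 3.57% and 7.69%, and TGANTCA in 6.13%, 4.91%, 7.14% and 3.85%. The 2 kept windows with TGANTCA, those of Sap30bp and Recql5, overlap and hold the same match under 1 site. The forkhead forms were thus no more frequent at kept than at mirror promoters in these small sets. A match describes letters in a window and not a bound site.

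The WT libraries, which the rule did not use, were read at the same sites. By the same rule 828 of all sites (15.0%) were kept in WT cells and 67 (1.21%) met the mirror rule there. Of the 293 sites kept in R397W cells, 52 (17.7%) were also kept in WT cells, and of the 193 R397W mirror sites 34 (17.6%) were. Seen from the WT side, 52 of 828 sites (6.28%) were kept in R397W cells, against 5.31% of all sites. The R397W-kept share in WT was 18.1% against 14.9% of all common sites, 13.3% against 11.6% of cTreg-specific sites and 19.0% against 18.1% of eTreg-specific sites. At the ratio of 2 a site with R397W Foxp3 over IgG was thus kept in WT about as often as a site with R397W IgG over Foxp3, while at a ratio of 1.5 the shares were 25.3% and 21.6%, with 19.4% over all sites.

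Among the 16 listed kept sites, 4 were also kept in WT, at Lrrc32, Ikzf1, Cd247 and the Tigit start. At the Tigit start WT Foxp3 was 304 and 104 against WT IgG at 11.9 and 0. At Lrrc32 it was 98.2 and 124 against 31.7 and 0. At the kept Il2ra site WT Foxp3 was 183 and 0 against 13.9 and 0, so the site was not kept in WT because library 2 had no reads. At the Ctla4 site it was 10.9 and 0 against 0 and 0.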

How the data were processed

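CUT&Tag libraries of R397W Treg cells (2 anti-Foxp3, 2 IgG) were analysed at 5521 sites. Fixation was in 0.1% formaldehyde (2 minutes), spike-in nuclei and 0.5 µg of antibody were added, and PCR ran for 14 to 15 cycles, per the labels' protocols. The authors deposited a normalised signal per site, described as spike-in normalised by the file names. Tools named in the submitters' processing notes are DiffBind 3.12.0 and Bowtie2 2.5.2, with builds mm10 and dm6. The site caller and duplicate removal are not given in the sources used here. All values above 0 were whole multiples of a step per library and file (tolerance 0.01), so whole reads were recovered. Intervals and floors cover counting error only.

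limma 3.58.1 (R 4.3.3; trended, two-sided, 4 R397W libraries) was run on log2(value + 1), which understates changes of weak sites, with p-values adjusted by Benjamini-Hochberg over 5521 sites (threshold 0.05). edgeR 4.0.16 and DESeq2 1.42.0 were run on recovered reads. Scripts were tested on simulated data. Each site was assigned the RefSeq gene (GRCm38.p6, protein-coding) whose body held its centre, by the nearer end where several did. Other sites were assigned the gene with the nearest end within 100 kb. Named sites are, per class, the 4 leading kept sites, 2 leading mirror sites and the highest Foxp3 mean, then the kept sites of each list (or its nearest to the rule) and up to 5 genes with most kept sites. Ties among those genes were taken by share of sites. The members, lists and rules were chosen with earlier results of these data known. Alternatives are described in the closing section.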

Additional observations from a re-analysis of the deposited data

Results flagged for a closer look

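At 5 named sites both R397W pairs went one way and both WT pairs the other. The difference between genotypes was not tested. As the mean log2 ratio of anti-Foxp3 to IgG over the pairs, the values were 4.53 in R397W and −2.87 in WT at the cTreg-specific site near Otud1, and 5.98 and −2.93 at the eTreg-specific site inside Arhgap26. At Eef1a1 they were 0.68 and −2.04, where the R397W pairs were 0.03 and 1.33, so that pair 1 hardly differed from IgG. At Spg11 they were 0.14 and −0.86, with 0.14 in each R397W pair, a ratio near 1. The site near Ncf1, which met the mirror rule in R397W cells, had −4.70 in R397W and 2.31 in WT. The WT pairs were −0.52 and −5.23 near Otud1, −0.15 and −5.70 inside Arhgap26 and 0.48 and 4.13 near Ncf1. Pair 2 thus set most of each of these WT means. In it WT Foxp3 had no reads near Otud1 and inside Arhgap26, and WT IgG had none near Ncf1. Otud1, Arhgap26 and Ncf1 were chosen for their R397W ratios, so only the WT sign is a separate reading there.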

How the results depend on the processing

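The count of limma calls was 0 with pseudocounts of 0.5 and 5, without the lowest 25% of sites, at equal totals, without trend, over all 8 libraries, and with edgeR and DESeq2. It was also 0 over sites with more than 20 reads on average, an alternative chosen after seeing the data. Leaving out each library gave 0 to 406 calls, the latter without R397W Foxp3 library 2. The kept count was 165 (97 mirror sites) at a ratio of 3. After seeing the data, 2 stricter forms were added, which gave 97 (76 mirror) over sites with reads in all 4 libraries and 190 (114 mirror) with each Foxp3 value set against both IgG values. One pair alone gave 1134 to 1231. Over all classes together kept sites outnumbered mirror sites in each of these settings, and the remaining kept counts, 196 to 427, lay within 1.5 times of 293. Common sites did so in each setting, but not the other classes. At eTreg-specific sites kept against mirror counts were 54 and 62 at a ratio of 1.5 and 21 and 27 at 20 reads. With reads in all 4 libraries they were 8 and 12, and in pair 1 alone 175 and 179. At cTreg-specific sites they were 126 and 166 in pair 1 alone and 26 and 28 at a pseudocount of 5. Of 28 named kept sites, 17 were still kept at 20 reads, 18 at a ratio of 3, 19 against both IgG values, 26 at a pseudocount of 5, 27 at equal totals and 3 with reads in all 4 libraries. Class ratios by mean log2 difference were 1.14 at common and 1.17 at eTreg-specific sites, and at equal totals 0.966 and 1.10, so the direction turned at eTreg-specific sites under both and at common sites at equal totals. Over single pairs they ranged from 1.06 to 1.12 at common, 0.896 to 1.42 at cTreg-specific and 0.880 to 1.03 at eTreg-specific sites. At a ratio of 1.5, 25.3% of kept sites were kept in WT, against 21.6% of mirror sites and 19.4% of all sites.

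The titles give the antibodies of a genotype the same numbers, but the labels name no shared animal, and deviations of same-numbered R397W libraries had r = 0.14 with 2 pairs. A fit with the replicate number as a block gave 0 calls, with 43 sites above and 23 below IgG at unadjusted p under 0.05, and edgeR with the block gave 0.

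The 55.5% and 60.1% of sites without reads in the libraries numbered 2 limit every ratio of pair 2, and the 2 libraries per antibody leave a test few degrees of freedom.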
